A study of Homo sapiens with 24 samples.

Results

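The data described here are 2191 genomic sites at which acetylation of lysine 9 of histone H3 (H3K9ac) differed between hTert-HME1 cells labelled shHAT1, for short hairpin RNA against HAT1, and cells of the same line labelled as control (shControl). They are all sites of the authors' deposited table for this comparison, which ends at a false discovery rate (FDR) of 0.1, and no site was left out. Both deposited tables of the series together hold 32666 sites, the remainder being a comparison of the histone chaperone Rbap46 with input chromatin. The line hTert-HME1 derives from mammary epithelium and was made immortal by expressing telomerase. Each group had 3 libraries, made by chromatin immunoprecipitation and sequencing (ChIP-seq) with an antibody against H3K9ac, from cells grown in mammary epithelial growth medium. The titles give each library of a group a tag of its own, and the labels do not say whether these tags stand for different hairpins, clones or cultures, so the authors' p-values measure the spread between these libraries. Levels of HAT1 itself are not among the values used, and the depletion could not be checked.

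HAT1 is an acetyltransferase best known for acetylating newly made histone H4 before it is built into chromatin, together with its partner Rbap46. H3K9ac is found mainly around the starts of active genes and is placed by other acetyltransferases, such as those of the GCN5 family. Active promoters carry high H3K9ac, so a change of this mark is usually read at sites that had it before. The comparison asks how the mark differs when HAT1 is depleted.

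Each site has a level per group, the log2 of the mean normalized read number over the group's 3 libraries, as the authors gave it. Values of single libraries were not used here, so levels are printed without an SD, and the depth of each library is unknown. A difference is the shHAT1 level minus the shControl level, in log2 units, and a loss is the same difference with its sign turned. Positions are those of the deposited table and are read as hg19, the build in the submitters' processing notes. Since no annotation of that build was used, sites are named by position, the labelled cell type was not checked against marker genes, and no DNA sequence is shown. Each library is an average over many cells, so that less acetylation in every cell and acetylation in fewer cells cannot be told apart.

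H3K9ac was lower in shHAT1 cells at 2174 sites and higher at 17. The ranks of p-values and FDR in the authors' deposited table are those of an adjustment over about 12048 sites, so the lower sites made up 18.0% and the higher sites 0.141% of the sites tested. At the sites of the table the median level was 9.27 in shControl, or 617 normalized reads, and 8.50 in shHAT1, or 362. The quartiles were 8.74 and 9.76 in shControl and 7.87 and 9.06 in shHAT1. Summed over all 2191 sites on the linear scale, the normalized signal was 40.9% lower in shHAT1 cells.

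Losses of the called sites were moderate and similar in size across most of them. The sites entered the table by the FDR of this same difference, so small losses were largely left out beforehand. The values below are therefore not those of all sites tested. The median loss of the lower sites was 0.78, with a 95% binomial interval of 0.77 to 0.79 that covers the choice of sites and not the libraries, and it corresponds to a fall of 41.8%. Of the lower sites, 1724, or 79.3%, had a loss between 0.5 and 1. The signal was at least halved at 402 lower sites, a loss of 1.5 or more was seen at 15, and a loss of 2 or more at 4. No lower site had a loss under 0.40, and 48 had a loss under 0.5. The direction of these sites rests on the authors' scaling between libraries. A scaling that raised all shHAT1 levels by 0.78 would bring the median lower site to equal levels, and values under another scaling were not analysed here.

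**Figure D1:**
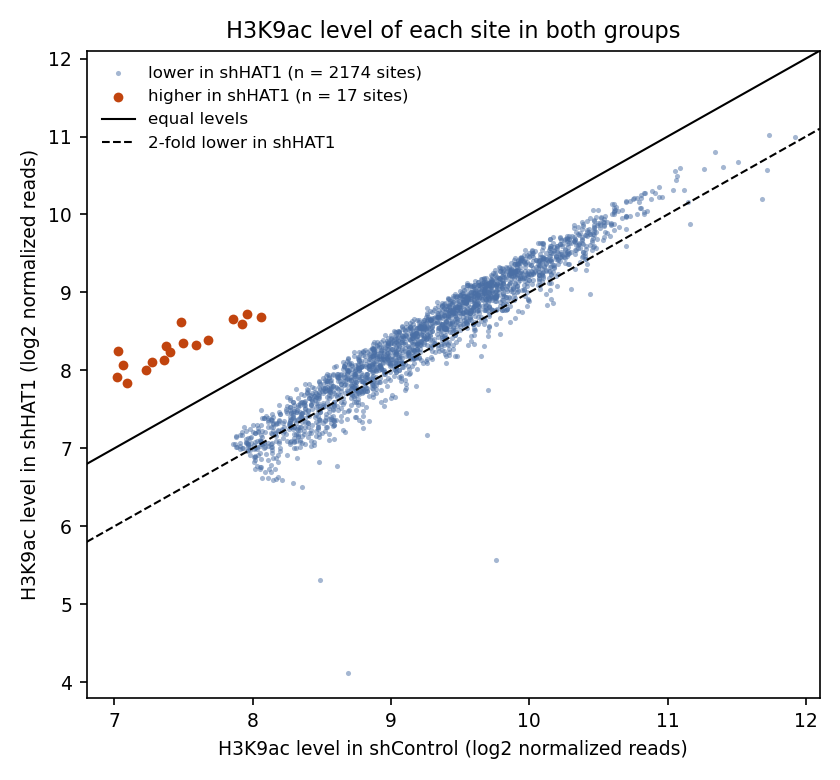
Each point is a site, with its H3K9ac level in shControl on the x axis and in shHAT1 on the y axis, both as log2 normalized reads averaged by the authors over 3 libraries. The 2174 lower sites form a narrow band below the line of equal levels, 3 sites fall far below the band, and the 17 higher sites lie at the low end of the shControl scale.

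Loss was larger, as a proportion, at sites with little H3K9ac to begin with. The sites were ordered by shControl level and divided into 10 sets of similar size. In the lowest set, from 7.02 to 8.31, the median loss of the lower sites was 0.94, a fall of 47.9%. It was 0.78 in the fifth set, from 9.06 to 9.27. In the highest set, from 10.19 to 11.92, it was 0.70, a fall of 38.4%. The order was not strict, since the seventh set had the smallest median, 0.68. At least a halving was seen at 39.4% of the lower sites in the lowest set and at 4.6% in the highest.

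The smallest loss that passed the FDR limit followed the same course, from 0.57 in the lowest set to 0.40 in the highest. Its part in the trend of the medians was not tested. Over the 2191 sites, Spearman's rho between shControl level and loss was -0.36 and Pearson's r was -0.16. As the shControl level is itself a term of the loss, the relation was also taken against the overall level of both groups, where rho was -0.45. Against the shHAT1 level rho was -0.58. The shHAT1 level is also a term of the loss, with a sign that lowers rho, and it enters the overall level too. Neither value is therefore stronger support for the trend than -0.36. These coefficients describe sites that share the same 6 libraries.

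In normalized reads the order was the opposite one. The median number lost per lower site was 134 in the lowest set and 527 in the highest. The highest set held 21.5% of the summed shControl signal and gave 20.4% of the summed loss, while the lowest, with its 17 higher sites, held 3.9% and gave 4.0%. The second set held 5.1% and gave 5.9%, and the third held 6.1% and gave 6.8%.

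**Figure D2:**
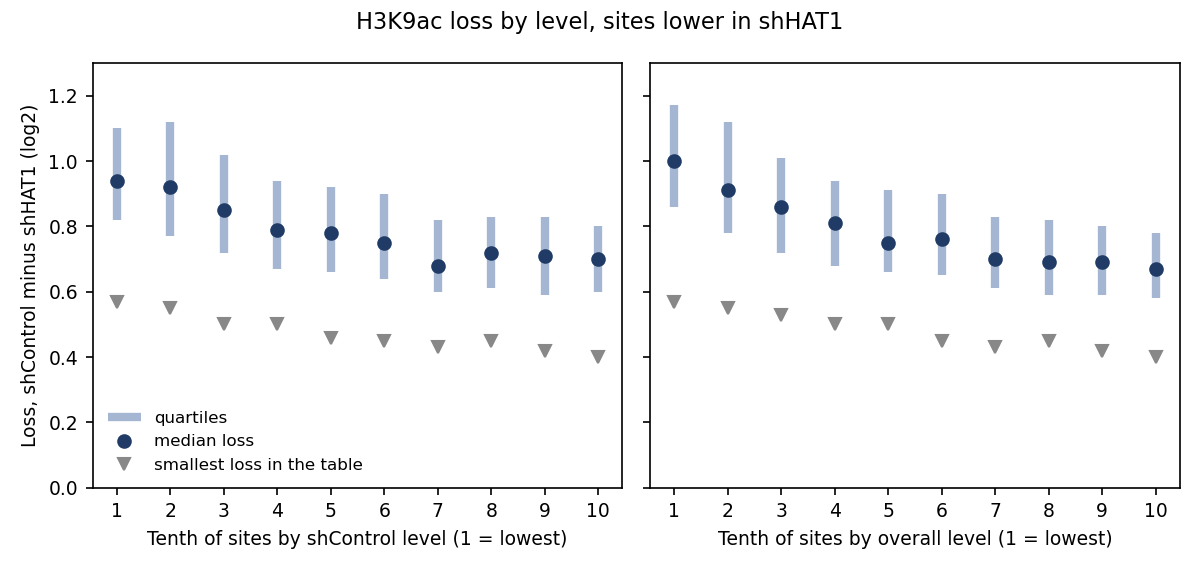
Sites in 10 sets of rising level, by shControl level on the left and by overall level on the right, against log2 loss of the lower sites. Dots are medians, bars run from the first to the third quartile, and triangles are the smallest loss in the set. By overall level the median falls from 1.00 to 0.67 while the smallest loss falls from 0.57 to 0.40.

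Among the changed sites, the 5 richest in H3K9ac in shControl cells were all lower in shHAT1 cells. No higher site had a shControl level above 8.06. Sites tested but not called were not ranked, and some may have had higher levels. The highest shControl level was at a site on chromosome 6 from 74230350 to 74230850, with 11.92 in shControl and a loss of 0.92, a fall from 3880 to 2050 normalized reads. On chromosome 22, from 46464986 to 46466299, levels were 11.73 and 11.02. A site on chromosome 12 from 54673058 to 54674914 had 11.72 and 10.57. On chromosome 9, from 136214261 to 136215607, the levels of 11.68 and 10.20 gave a loss of 1.48, the largest among these 5 sites. On chromosome 1, from 8938354 to 8939309, they were 11.51 and 10.67. Of the 5, the FDR in the authors' deposited table was lowest on chromosome 12, at 0.0283, and highest on chromosome 22, at 0.0942. These sites still had more H3K9ac in shHAT1 cells than the median site had in shControl cells.

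The 17 sites with higher H3K9ac were weak sites. Their overall levels lay between 7.51 and 8.40, and 7.51 was also the lowest overall level in the table. Their shControl levels ran from 7.02 to 8.06 with a median of 7.40, or 169 normalized reads, and their shHAT1 levels from 7.84 to 8.72 with a median of 8.31, or 317. The 5 lowest shControl levels of the table all belonged to them. This follows in part from the lowest overall level, since a site that is lower in shHAT1 has a shControl level above its overall level, and the lowest for such a site was 7.86, on chromosome 12 from 64797638 to 64798138. Only 2 of the 17 were above the 25th percentile of overall level, 8.37.

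At the same overall levels, 7.51 to 8.40, the table held 570 lower sites. Their median difference was 0.94 in size, against 0.80 for the higher sites, and the share that overlapped an Rbap46 site was 57.2% against 58.8%. At FDR under 0.05 there were 5 higher and 166 lower sites in this range, and the 5 were 0.0415% of the sites tested. Among weak sites as well, lower sites were thus by far the more numerous.

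The largest gain, 1.22, was on chromosome 1 from 33167954 to 33168922, where the level rose from 7.03 to 8.25, or from 131 to 304 normalized reads (FDR 0.0379 in the authors' deposited table). Next came a site on chromosome 6 from 114179128 to 114179628, at 7.48 and 8.62 (FDR 0.0341 in the authors' deposited table). It had a second gain beside it, from 114180669 to 114181169, at 7.59 and 8.32, and the gap of 1040 bp between them was the smallest between higher sites. The third was on chromosome 11 from 45921278 to 45921778, with levels of 7.06 and 8.07 (FDR 0.0349 in the authors' deposited table). The signal at least doubled at 3 of the 17 sites, namely the site named first on chromosome 1, the first of the pair on chromosome 6 and the site on chromosome 11. The smallest p-value of a gain belonged to a smaller difference of 0.76, on chromosome 1 from 110452910 to 110453790, where levels were 7.96 and 8.72 (FDR 0.0218 in the authors' deposited table). A further site of chromosome 1, from 13910657 to 13911157, had 7.02 and 7.92 (FDR 0.0442 in the authors' deposited table) and completed the 5 gains under 0.05.

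The other 11 gains had differences from 0.62 to 0.94. Chromosome 22 held a pair of them, from 29075419 to 29075919 with levels of 7.37 and 8.31 and from 31503150 to 31503650 with 7.50 and 8.35. On chromosome 10 there were 3, starting at 116164164 (7.40 and 8.24), 129705352 (7.92 and 8.60) and 80828659 (8.06 and 8.68). Of the remaining gains, the first 3 started at 97657258 on chromosome 8 (7.27 and 8.11), at 4297700 on chromosome 9 (7.86 and 8.66) and at 60704984 on chromosome 17 (7.36 and 8.13). The last 3 started at 46477956 on chromosome 18 (7.23 and 8.0), at 65215654 on chromosome 2 (7.09 and 7.84) and at 45201810 on chromosome 11 (7.68 and 8.39).

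Gains were found away from losses. None had a lower site within 10 kb and 2 had one within 100 kb, the nearest at 51.3 kb. The median gap from a higher site to the nearest lower site was 759 kb, whereas the median gap from a lower site to the nearest other lower site was 91 kb. The latter covers lower sites of all levels. Whether lower sites as weak as the gains lie equally far from others was not tested.

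**Figure D3:**
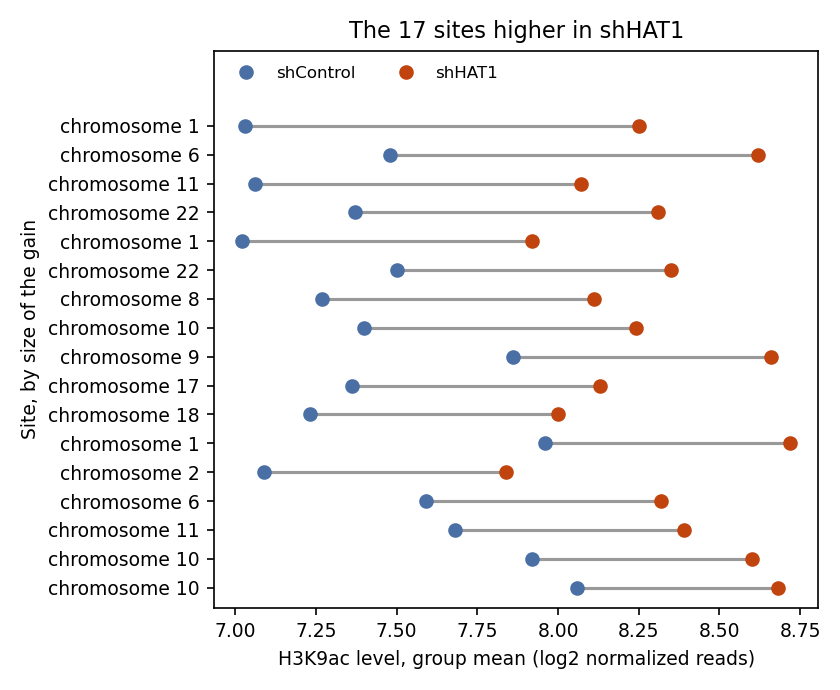
The 17 sites higher in shHAT1, ordered by size of the gain with the largest at the top and named by chromosome. Each line joins the group level in shControl (blue) to that in shHAT1 (orange), in log2 normalized reads. All shControl levels lie between 7.02 and 8.06.

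A few losses, 3 in number, stood far below the rest. A pair of neighbouring sites on chromosome 6 went from 8.69 to 4.12 (66970079 to 66970949) and from 9.76 to 5.57 (66969402 to 66969902), that is from 413 to 17.4 and from 867 to 47.5 normalized reads. The nearest other changed site was 2.69 Mb away. The third was on chromosome 19 from 35739372 to 35739872, with 8.49 in shControl and 5.31 in shHAT1, or 360 and 39.7 normalized reads. The next largest loss was 2.09, on chromosome 5 from 52777548 to 52778484, where levels were 9.26 and 7.17.

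Over the lower sites, larger losses went with smaller p-values, with a Spearman's rho of 0.45 between loss and −log10 p. The extremes of the 2 measures were different sites. The 10 sites of largest loss and the 10 of smallest p-value had 0 sites in common, and 1 of the former was at FDR under 0.01, on chromosome 1 from 186528693 to 186529608 (levels 8.61 and 6.77). The site on chromosome 19 with a loss of 3.18 stood at FDR 0.0706 in the authors' deposited table, and that on chromosome 5 with a loss of 2.09 at FDR 0.0882, although they were 9.06-fold and 4.26-fold lower. The spread between libraries at these sites was not analysed here. Others of the 10 were on chromosome 9 from 137029554 to 137030054 (9.70 and 7.75), chromosome 8 from 120220125 to 120221089 (8.36 and 6.51) and chromosome 13 from 109924477 to 109924977 (8.29 and 6.55). The last were on chromosome 16 from 8891018 to 8891518 (9.11 and 7.45) and chromosome X from 45364850 to 45366229 (8.48 and 6.83).

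The 10 sites with the smallest p-values had losses between 1.08 and 1.54 from shControl levels between 8.77 and 10.15. A pair of them were neighbours on chromosome 12. At the site from 120729570 to 120730070 the level went from 10.15 to 9.03 (FDR 3.85e-05 in the authors' deposited table), and 844 bp further on, from 120730915 to 120731415, it went from 8.80 to 7.26 (FDR 0.000263 in the authors' deposited table). Chromosome 19 from 45981829 to 45982329 had 1020 and 474 normalized reads (FDR 3.85e-05 in the authors' deposited table). Chromosome 9 from 140135617 to 140136117 had 9.65 and 8.18, at FDR 5.98e-05 in the authors' deposited table. Another pair was on chromosome 1, from 45196696 to 45197196 with 9.11 and 7.78 and from 186649080 to 186649580 with 8.77 and 7.36. On chromosome 16 the sites from 3073923 to 3074423 and from 8891568 to 8892068 had 9.19 and 8.02, and 9.99 and 8.91. The second of these lay 49 bp from the site of chromosome 16 among the largest losses. Chromosome 17 gave the last pair, from 43225205 to 43225705 with 9.90 and 8.67 and from 8076768 to 8077268 with 9.01 and 7.68.

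**Figure D4:**
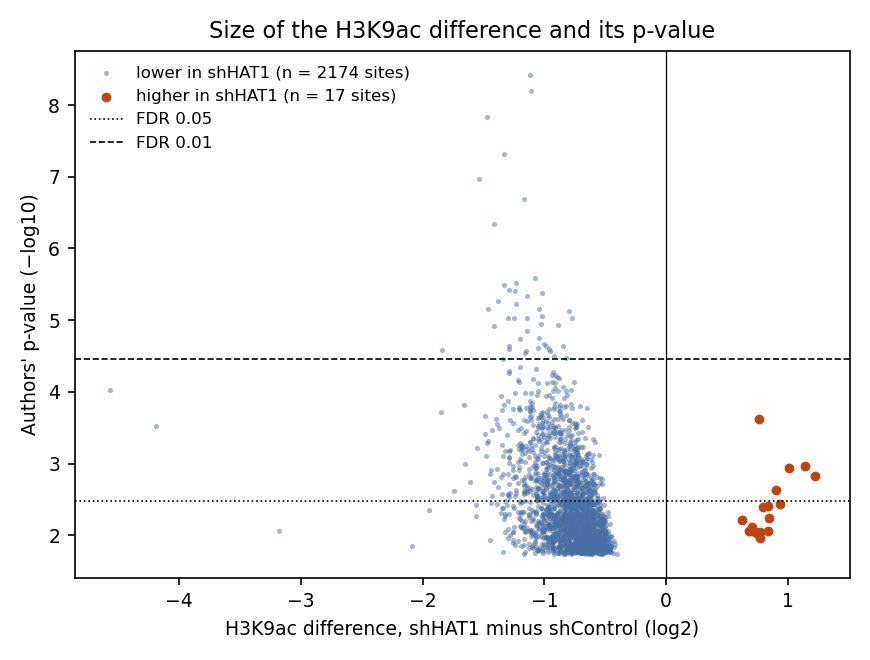
Each point is a site, with the log2 difference, shHAT1 minus shControl, on the x axis and the authors' p-value as −log10 on the y axis. Lines mark the largest p-value at FDR 0.05 and 0.01. The 3 largest losses lie below the line of FDR 0.01, and the 44 sites above that line are lower sites with losses of at least 0.77.

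At stricter limits the losses in the table were larger. The FDR rests on the same difference, so a stricter limit tends to drop small losses, and the rise is no separate result. At FDR under 0.05, which 6.6% of the sites tested passed in either direction and 6.56% as lower sites, the 790 lower sites had a median loss of 0.89. At FDR under 0.01, or 0.365%, the 44 lower sites had a median of 1.15, and 35 of them were at least halved. At the other end, the last site inside the limit of 0.1, on chromosome 9 from 21801847 to 21802347, had levels of 8.87 and 8.34, at FDR 0.0999 by the deposited table of the authors. The sites just before it had differences of -0.62 and -0.92. Sites outside the limit were not used here.

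The losses of sites close to one another were correlated, although they differed by about as much as those of any 2 lower sites. In 228 cases 2 sites of a chromosome were less than 1 kb apart, and 0 of these pairs held a higher site. Higher sites were only 0.8% of the table, and the closest 2 of them, 1040 bp apart, lay just outside this limit. The losses of neighbours differed by a median of 0.20, against 0.19 for any 2 lower sites of the table. Their shControl levels differed by a median of 0.67, against 0.69. Pearson's r between the losses of neighbours was 0.65, and 0.34 without the pair of chromosome 6 with losses over 4. Neighbours can share reads and the same libraries. Within these pairs, the member with the higher shControl level had the smaller proportional loss in 144 and the larger in 76.

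Loss also differed with Rbap46. Rbap46 sites are those above input in the authors' other table, from cells labelled as untreated hTert-HME1, and overlap means at least 1 bp. Whether these cells were of the same line as those of the H3K9ac libraries was not checked. Of the lower sites, 1658 overlapped such a site and 516 did not. The share among the sites tested but not called is unknown here. Whether changed sites overlapped Rbap46 more often than other H3K9ac sites was therefore not tested. Those with overlap had a median shControl level of 9.42 and a median loss of 0.75, and those without had 8.84 and 0.89. At least a halving was seen at 13.9% and 33.3%. Since loss varied with level, the lower sites were divided into 3 sets by shControl level. Median loss was 0.84 with overlap and 0.96 without in the lowest set, 0.74 and 0.84 in the middle one, and 0.69 and 0.77 in the highest. The difference thus kept its direction in each set. Among overlapping sites the strength of Rbap46 made little difference, as the median loss was 0.76 in the lowest of 4 sets by Rbap46 enrichment and 0.73 in the highest (rho over 1658 sites, -0.07). No test was made over sites, which are not replicates of a condition.

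A group of strong losses lay on the short arm of chromosome 6, whose histone gene cluster is the largest of the genome. Between 26 and 28 Mb the table held 44 sites, all lower, in 2 stretches. The first had 28 sites within 345 kb, from 26020937 to 26365813, and the second 16 sites within 764 kb, from 27099161 to 27862717. With neighbours within 1 kb merged, these were 18 and 9 regions. Losses ran from 0.77 to 1.39, with a median of 1.10 and quartiles of 1.02 and 1.25. Starting levels were lower than elsewhere, with a median of 8.82 against 9.30. To compare like levels, the other lower sites were limited to those with a shControl level between the quartiles of the 44, 8.41 and 9.26. There were 779 of them, with a median loss of 0.81. The share at least halved was 81.8% in the region and 23.5% at those 779 sites. The values of the region cover all 44 sites, whose shControl levels ran more widely, from 8.02 to 10.13. The largest loss of the region was at 26234606 to 26235106, where levels were 8.80 and 7.41. By the FDR of the authors' deposited table, 23 of the 44 sites, or 52.3%, were under 0.05, against 36.0% of all other lower sites and 32.1% of the 779. Under 0.01 there were 0 of the 44, against 44 of the 2130 other lower sites. Which of these sites lie at histone genes was not analysed here.

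By chromosome, the size of the loss varied little. Among the 21 chromosomes with at least 20 sites, the median loss ranged from 0.69 on chromosome 18 to 0.86 on chromosome 6. On chromosome 13 it was 1.05, but over only 11 sites.

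The number of changed sites varied far more. The number of sites tested on each chromosome is unknown here, so changed sites were set against Rbap46 sites instead. The whole table had 7.20 changed H3K9ac sites per 100 Rbap46 sites. Whether Rbap46 sites follow the number of H3K9ac sites tested on a chromosome was not examined. Chromosome 16 had 214 changed sites, 9.8% of the table, all of them lower, or 16.49 per 100 Rbap46 sites. Chromosome 12 followed with 11.07. The lowest values were 2.53 on chromosome 13, 2.97 on chromosome 4, 3.55 on chromosome 14 and 3.74 on chromosome 7.

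On chromosome 16 the ratio to Rbap46 sites was highest in the first 30 Mb, with 28.2, 18.3 and 21.1 per 100 in steps of 10 Mb. All 9 steps with at least 20 Rbap46 sites were above the genome value. The lowest, from 80 to 90 Mb, was close to it at 8.1. Chromosome 7 had the opposite pattern over part of its length. From 75677813 to 130597172, a stretch of 54.9 Mb, the table held 0 changed H3K9ac sites while 620 Rbap46 sites lay there, a number that goes with 44.7 changed sites at the genome ratio. The next such stretch was on chromosome 14, from 70234235 to 100704581, with 233 Rbap46 sites. Between a typical pair of neighbouring H3K9ac sites there were 6. These counts come from cells of the other table, and the H3K9ac sites tested but not called were not used here, so a stretch without changed sites may have held tested sites or not. Whether the cells of both groups, and those of the Rbap46 and input libraries, had the same chromosome numbers was not tested.

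**Figure D5:**
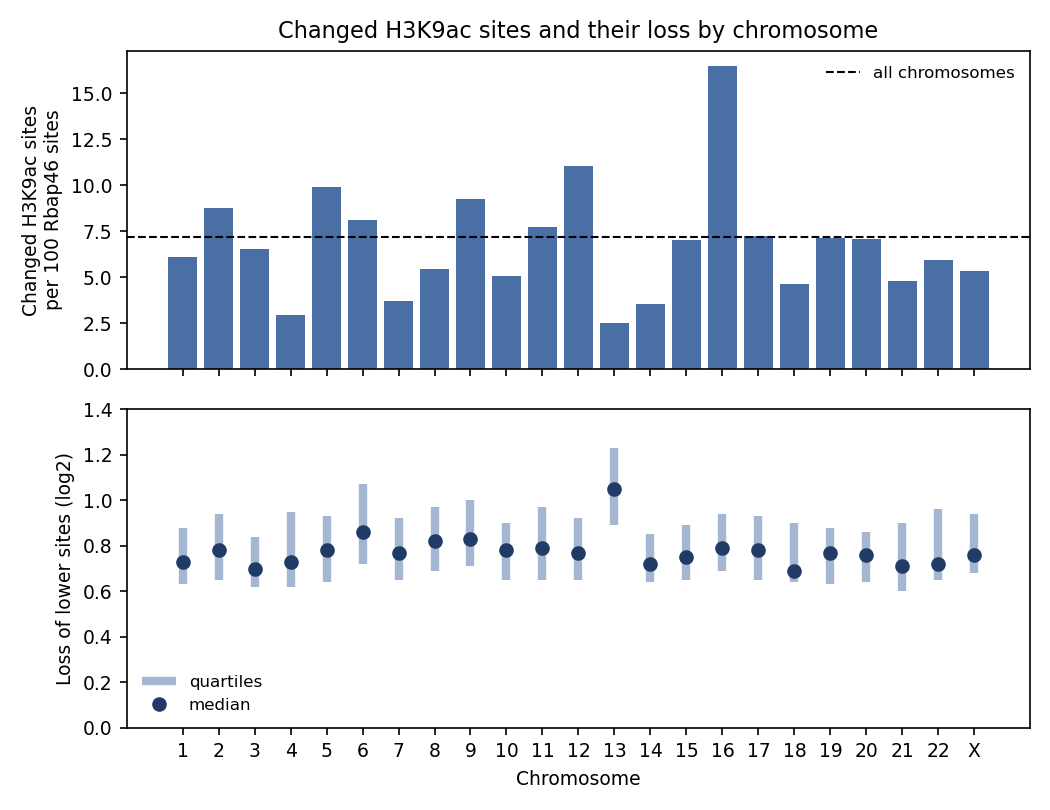
Top, changed H3K9ac sites per 100 Rbap46 sites for each chromosome, with a dashed line at the value of the whole table, 7.20. Bottom, log2 loss of the lower sites of each chromosome, with dots for medians and bars from the first to the third quartile. Chromosome 16 stands out in number, at 16.49, and not in loss, at a median of 0.79.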

How the data were processed

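H3K9ac was measured by ChIP-seq in 3 shControl and 3 shHAT1 libraries of the series' 24. The submitters' processing notes name cutadapt, Bowtie2, SAMtools, Picard, MACS2 and DiffBind and the build hg19. Per the file headers, the deposited levels and folds are log2 mean normalized reads and their differences, and the p-value and FDR are those of the authors. The scaling between libraries and the test are not given in the sources used here, and either can move every difference.

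From the levels, differences, medians, overlaps (at least 1 bp) and windows of 1 Mb were computed with Python 3.11, numpy 2.4.6, pandas 2.3.3 and scipy 1.17.1. The number of sites tested, 12047 to 12049, was inferred from p-value and FDR by rank, and this step and the overlap were tested on simulated data. No test was run on group means. Sites named are the 10 of largest loss, the 10 of smallest p, the 5 of highest and lowest shControl level and all gains; 26234606 on chromosome 6, 64797638 on chromosome 12 and 21801847 on chromosome 9 were chosen after their values were seen. Members, windows and lists were chosen with earlier results of these data known. The gene lists of the design were not used, for want of an hg19 annotation here. H4K12ac, H4K5ac and HAT1 libraries were not analysed here.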

Additional observations from a re-analysis of the deposited data

How the results depend on the processing

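Lower sites numbered 790 at FDR under 0.05, 44 at FDR under 0.01 and 402 with at least a 2-fold difference, against 2174. Higher sites numbered 5, 0 and 3 under these limits and 2 above the 25th percentile of overall level, against 17. Raising shHAT1 by a uniform 0.5 gave 65 by construction, since it adds the 48 losses under 0.5, and is no check of the calls. The count of 0 is by the authors' FDR, and no other tool was run. The median loss of 0.78 was 0.89 at FDR under 0.05 and 0.73 above the 25th percentile of overall level. The rho of -0.36 between level and loss was -0.45 against overall level, -0.58 against shHAT1 level, -0.45 at FDR under 0.05, -0.37 at sites of the smallest width and -0.39 at lower sites only. Overlap with Rbap46, 76.1%, was 53.9% if at least 50% of the H3K9ac site had to overlap, 86.0% within 1 kb and 54.9% with Rbap46 sites at least 2-fold over input. The fullest window of 1 Mb held 28 sites. It held 44 with windows of 2 Mb, and with neighbours within 1 kb merged 18 regions, a number shared by chromosome 6 from 26 to 27 Mb and chromosome 16 from 2 to 3 Mb. A further 11 alternatives of the design left a count within 1.5 times, or a median or share within its interval, or the rho as it was.

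Further checks were chosen after the data were seen. Chromosome 16 had 2.29 times the genome's ratio of changed H3K9ac to Rbap46 sites, 2.69 times at FDR under 0.05 and 2.20 times with Rbap46 sites at least 2-fold over input. The stretch of chromosome 7 held 620 Rbap46 sites, 291 of them at least 2-fold over input. With only H3K9ac sites at FDR under 0.05 kept, the fullest stretch of chromosome 7 without one held 941. Leaving out H3K9ac sites can only widen such stretches, so this number is no check. Without the region of chromosome 6, the median loss was 0.77.

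Alternatives at gene starts were not run, for want of an annotation of hg19 here. Leaving out a library was not run, since the table holds group means. No paired analysis was possible because the table holds group means and no values per library. Depth per library is unknown, and small differences at weak sites were not detectable.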

Other observations

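Apart from chromosome 6, the fullest windows of 1 Mb listed here were on chromosomes 16 and 9, near an end of each. On chromosome 16, the windows from 2 to 3 Mb and from 3 to 4 Mb held 21 and 18 changed sites, all lower, with median shControl levels of 9.72 and 9.57 and median losses of 0.81 and 0.91. The first window of the same chromosome held 14 sites with a median loss of 0.74. On chromosome 9, the window from 139 to 140 Mb also held 14 sites, all lower, with a median shControl level of 9.56, a median loss of 0.99 and a largest loss of 1.56. Of 1003 windows with a changed site, 13 held 10 or more, and the median was 2.

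Sites wider than the smallest width of the table had more H3K9ac and a slightly smaller loss. The 468 lower sites of this kind had a median shControl level of 9.58 and a median loss of 0.75, against 9.19 and 0.79 for the 1706 lower sites of the smallest width.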
